A study of Mus musculus with 2 samples.

Results

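The Mir181 family was described from its 6 annotated genes, Mir181a-1, Mir181a-2, Mir181b-1, Mir181b-2, Mir181c and Mir181d, out of 2202 microRNA genes in the count tables. The members were picked by their GENCODE M21 symbols and by no cutoff on a measured value, though with earlier results of these data known. Small RNA below 30 bases was sequenced from cerebral cortex of the left side, taken from 4 days old female mice of strain B6CASTF1/J, an F1 hybrid obtained from The Jackson Laboratory. No treatment or transgene is named in the labels, and they form 1 group of 2 biological replicates, each a library from its own numbered animal under a shared donor record. No contrast between conditions follows from this design. The libraries are therefore set side by side, and no test was run.

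MicroRNAs are short RNAs cut from hairpin precursors, and each hairpin can yield a product from its 5′ side (5p arm) and from its 3′ side (3p arm). The bases just after the first, called the seed, pair with target messenger RNAs. The miR-181 family is found in vertebrates, is known from lymphocytes, where it tunes T cell receptor signalling, and is abundant in brain, where its members act in neurons and astrocytes. Its genes lie in pairs, each pair transcribed from a common precursor.

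The 4 distinct 5p arms are shown first because their shared seed defines the family and because their differences decide which reads can be given to a gene. They were taken from RefSeq (GRCm38.p6), which held all 6 genes by symbol. Capitals mark the seed, bases 2 to 8, and letters run 5′ to 3′.
miR-181a-5p (Mir181a-1 and Mir181a-2): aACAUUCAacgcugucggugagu
miR-181c-5p (Mir181c): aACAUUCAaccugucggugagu
miR-181b-5p (Mir181b-1 and Mir181b-2): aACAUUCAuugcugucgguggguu
miR-181d-5p (Mir181d): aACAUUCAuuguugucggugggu

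All 4 arms carry the seed ACAUUCA, and no gene outside the family in the RefSeq table of 1738 mature entries does. The arms form 2 groups by their other bases. Counted from 1 at the 5′ end, miR-181c-5p equals miR-181a-5p without its G at position 11, a distance of 1 edit. Within the other group, miR-181d-5p differs from miR-181b-5p by C12U and lacks its last base, a distance of 2 edits. Between the groups the distance was 4 or 5 edits, and miR-181a-5p differs from miR-181b-5p by A9U, C10U and A21G besides the length. Each locus holds 1 gene of each group, with the gene of the miR-181a-5p and miR-181c-5p group first in the direction of transcription and the gene of the miR-181b-5p and miR-181d-5p group second.

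The 6 3p arms differ more, and are shown because each is found in 1 hairpin only. Capitals again mark bases 2 to 8.
miR-181a-1-3p: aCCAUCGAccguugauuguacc
miR-181c-3p: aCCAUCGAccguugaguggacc
miR-181a-2-3p: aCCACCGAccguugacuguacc
miR-181b-1-3p: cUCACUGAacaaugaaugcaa
miR-181b-2-3p: cUCACUGAucaaugaaugcaaa
miR-181d-3p: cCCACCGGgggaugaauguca

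They hold 4 seeds. CCAUCGA is shared by the 3p arms of Mir181a-1 and Mir181c, and UCACUGA by those of Mir181b-1 and Mir181b-2. CCACCGA occurs in the arm of Mir181a-2 and CCACCGG in that of Mir181d. The 3p arms of Mir181a-1 and Mir181a-2 differ by U5C and U16C, and those of Mir181b-1 and Mir181b-2 by A9U and the last base.

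The 3 loci, in mm10 coordinates and M21 annotation, are as follows. Mir181a-1 (ENSMUSG00000065565.1) is found on chromosome 1, plus strand, at 137966455 to 137966541. Mir181b-1 (ENSMUSG00000065458.1) follows 97 bases downstream, from 137966639 to 137966718. Both lie in an intron of the noncoding transcript Gm4258. Mir181b-1 also lies wholly in the exon of the lincRNA A430106G13Rik, which overlaps the end of the Mir181a-1 hairpin.

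Mir181a-2 (ENSMUSG00000065423.1) is found on chromosome 2, plus strand, at 38852735 to 38852810, and Mir181b-2 (ENSMUSG00000065578.1) at 38853830 to 38853918, a gap of 1019 bases. Both are inside introns of Nr6a1, a nuclear receptor gene on the opposite strand, and Mir181b-2 is opposite to an exon of the transcript Gm44144, of unknown kind.

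On the minus strand of chromosome 8, Mir181c (ENSMUSG00000065483.2) lies from 84178873 to 84178961 and Mir181d (ENSMUSG00000076338.1) from 84178716 to 84178787, with 85 bases between them. Both are in an intron of 1 transcript of Nanos3, a gene known for an RNA-binding protein of germ cells.

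**Figure D1:**
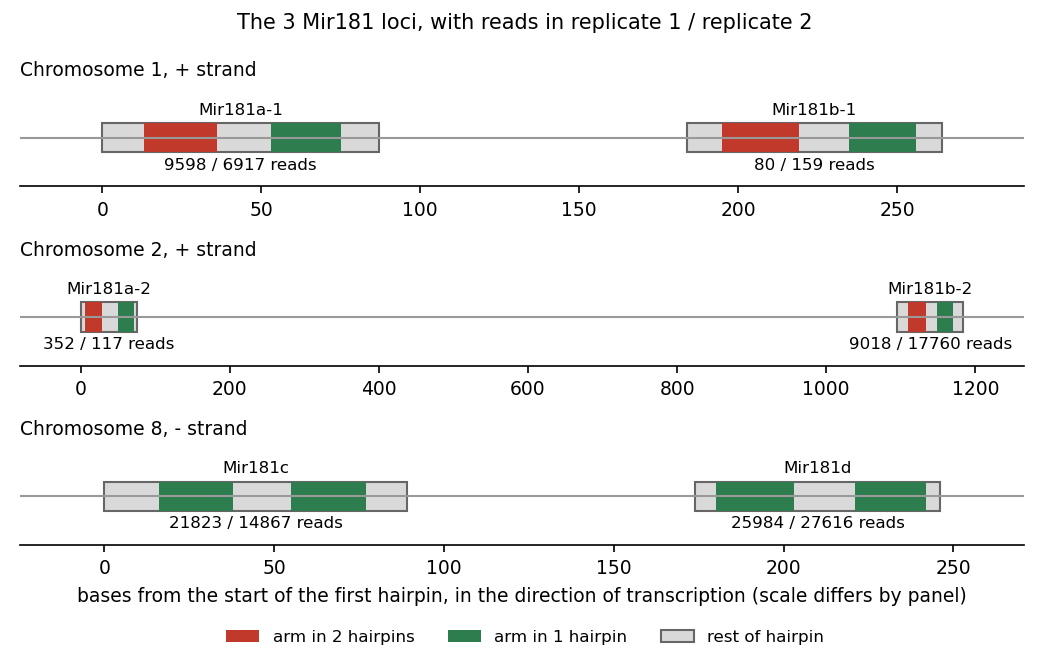
The 3 Mir181 loci drawn in the direction of transcription, with bases from the start of the first hairpin on each x axis. Grey boxes are hairpins, red marks an arm found in 2 hairpins and green an arm found in 1, and the numbers under each hairpin are its reads in replicate 1 and replicate 2. Red arms occur on chromosomes 1 and 2 and not at the chromosome 8 pair.

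Replicate 1 had 3555469 reads on the annotated strand of microRNA genes and replicate 2 had 2761003, so that 1 CPM, a count scaled to the same total of such reads in each library, stands for 3.56 and 2.76 reads. A further 45.8% and 41.0% of all reads mapped to several places and were given to no gene. The label was set beside 15 brain microRNA genes, of which 11 reached 2 CPM in both libraries, against 20.4% of all 2202 genes. These 15 held 3.77% and 2.93% of counts. They are genes of brain and neurons in general and do not single out cortex. Those below 2 CPM in either library were Mir9-2 and the copies of Mir124a, with 2 to 10 reads in each library. Most of the sum came from Mir137 (51188 and 37749 reads), Mir128-1 (50037 and 18550) and Mir128-2 (19934 and 8635). A stretch of 22 bases in 14 of the 15 genes recurs in another hairpin, on either strand. How far this lowered their counts was not tested. The 5 genes of hindbrain and spinal cord held 0.00678% and 0.00786%. Markers of other cells differed between the libraries. Epithelial genes held 0.193% in replicate 1 and 0.00938% in replicate 2, choroid plexus and ciliated cell genes 0.522% and 0.279%, red cell genes 0.00602% and 0.0550%, and vessel genes 1.63% and 2.38%. Most of the vessel sum came from Mir126a. In the red cell list, Mir451a had 60 and 1356 reads and Mir144 had 23 and 79. Mir486 of that list went the other way, with 131 and 84 reads, and had the most reads of the list in replicate 1. Mir126a had 45660 and 54454 reads, a log2 ratio of replicate 2 over replicate 1 of 0.60 with the libraries scaled, while Mir145a of the vessel list had -0.53. The 5 lymphocyte and myeloid genes held 0.110% and 0.119%. In bulk tissue, fewer cells of a type and less RNA per cell cannot be told apart.

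All 6 Mir181 genes reached 2 CPM in both libraries, against 20.4% of all 2202 genes. Together they held 1.88% of microRNA counts in replicate 1 (66855 reads, 95% Wilson interval 1.87 to 1.89) and 2.44% in replicate 2 (67436 reads, 2.42 to 2.46). Their mean share was 2.16% ± 0.397 (SD, n = 2). All intervals given here cover counting error only, since amplified reads are not independent molecules. The median level of the members was 3543 CPM, and that of the 450 genes at 2 CPM or more in both libraries was 89.2 CPM. CPM values were not divided by length, because a read spans a whole arm whatever the hairpin length, which ran from 72 to 89 bases.

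Most of the family reads that were given to a gene came from the pair on chromosome 8. Reads mapped to several places are not among them. The 5p arms of the 4 genes on chromosomes 1 and 2 are each found in 2 hairpins, so their reads can be left out in this way. The chromosome 8 pair held 71.5% of family reads in replicate 1 (71.2 to 71.8) and 63.0% in replicate 2 (62.6 to 63.4). Mir181d led, with 7308 CPM (25984 reads) in replicate 1 and 10002 CPM (27616 reads) in replicate 2, a mean of 8655 ± 1905 CPM (SD, n = 2). It ranked at place 33 among all genes in replicate 1 and at place 21 in replicate 2.

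Mir181c had 6138 CPM (21823 reads) in replicate 1 and 5385 CPM (14867 reads) in replicate 2, a mean of 5761 ± 533 CPM. It was lower than Mir181d in both libraries, and the values of these genes did not overlap. Both arms of each hairpin on chromosome 8 occur in no other annotated microRNA hairpin, and neither hairpin shares a run of 18 bases with another.

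The chromosome 2 pair held 14.0% (13.8 to 14.3) and 26.5% (26.2 to 26.8) of family reads, almost all of it from Mir181b-2. Mir181b-2 had 2536 CPM (9018 reads) in replicate 1 and 6432 CPM (17760 reads) in replicate 2, a mean of 4484 ± 2755 CPM. It ranked at place 71 in replicate 1 and at place 38 in replicate 2, and its spread was 61.4% of its mean. Its neighbour Mir181a-2 had 99.0 CPM (352 reads) and 42.4 CPM (117 reads), a mean of 70.7 ± 40.0 CPM. On the opposite strand Mir181a-2 had 2 reads in replicate 2, and the other members had none in either library.

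The chromosome 1 pair held 14.5% (14.2 to 14.7) and 10.5% (10.3 to 10.7) of family reads, here almost all from the first gene. Mir181a-1 had 2699.5 CPM (9598 reads) in replicate 1 and 2505 CPM (6917 reads) in replicate 2, a mean of 2602 ± 137 CPM, the smallest relative spread of the 6 genes (5.28% of the mean). Mir181b-1 was the lowest member, with 22.5 CPM (80 reads) and 57.6 CPM (159 reads), a mean of 40.0 ± 24.8 CPM.

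By mean level the order was Mir181d, Mir181c, Mir181b-2, Mir181a-1, Mir181a-2 and Mir181b-1, over a 216-fold range. Mir181c and Mir181b-2 overlapped between libraries, as did Mir181b-2 and Mir181a-1, and Mir181a-2 and Mir181b-1, so that the order within these neighbours is not set by the 2 libraries. The gap between Mir181a-1 (2505 CPM in its lower library) and Mir181a-2 (99.0 CPM in its higher library) divided the family into 4 genes at 2505 CPM or more and 2 below 100 CPM. Reads mapped to several places are in none of these levels.

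**Figure D2:**
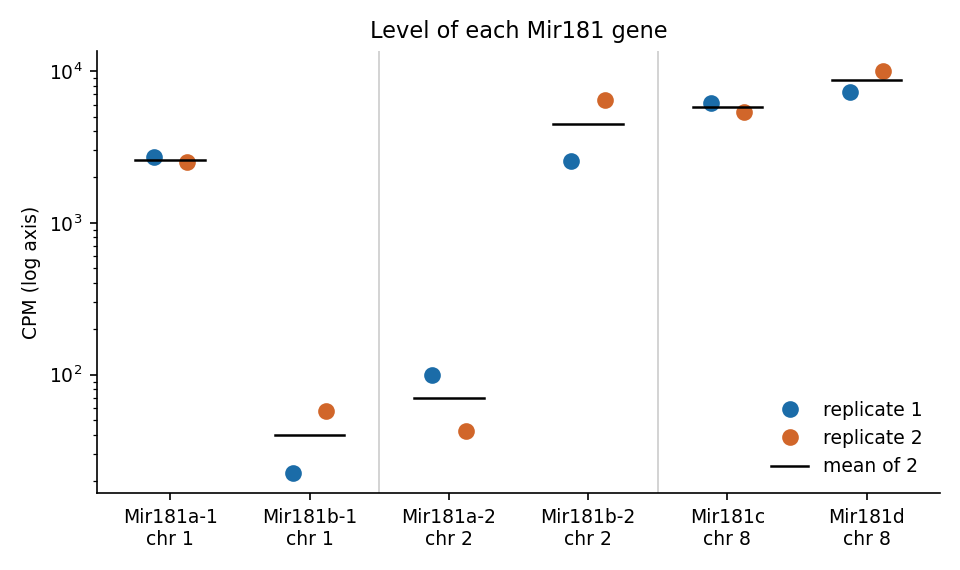
Level of each Mir181 gene in CPM on a log axis, with blue points for replicate 1, orange points for replicate 2 and a line at their mean. Mir181b-1 and Mir181a-2 sit between 22.5 and 99.0 CPM, and the other 4 genes between 2505 and 10002 CPM.

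How far a count can be given to one copy depends on the sequence. The 4 genes on chromosomes 1 and 2 share a run of 22 bases with another hairpin, against 49.1% of all genes, and in each case the partner is the gene of the same 5p arm at the other locus. The longest shared run was 28 bases for Mir181a-1 and Mir181a-2 and 26 bases for Mir181b-1 and Mir181b-2. Of 12 arm entries in the family 4 occurred in 2 hairpins, against 8.16% of the 1678 RefSeq arms of genes in the tables. Since reads mapped to several places are in a total of their own, the reads of a 5p arm that 2 hairpins hold are not in the gene counts unless they reach a base that differs. The stretches below run from the first base of the 5p arm to that base, which is in capitals.
Mir181a-1: aacauucaacgcugucggugaguuuggA
Mir181a-2: aacauucaacgcugucggugaguuuggG
Mir181b-1: aacauucauugcugucgguggguuG
Mir181b-2: aacauucauugcugucgguggguuU

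A read from the first base of miR-181a-5p, which is 23 bases long, would have to extend 5 bases past the arm, to 28 bases, to tell Mir181a-1 from Mir181a-2. For miR-181b-5p, 24 bases long, 1 base past the arm is enough, G for Mir181b-1 and U for Mir181b-2. Such a base tells the copies apart only if it belongs to the hairpin and was not added to the arm afterwards. The counts do not show which was the case. The 5p arm of Mir181c was found in 1 hairpin from its base 11 on and that of Mir181d from its base 12 on. Among the 3p arms, those of Mir181a-1 and Mir181c needed 16 bases, and the other 4 needed 8 to 10 bases. The tables add up both arms, so which arm the counts came from was not given. For the 4 genes with a copy, the counts thus leave out reads that end within the annotated 5p arm, in unknown number, and the levels of miR-181a and miR-181b relative to Mir181c and Mir181d are uncertain.

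**Figure D3:**
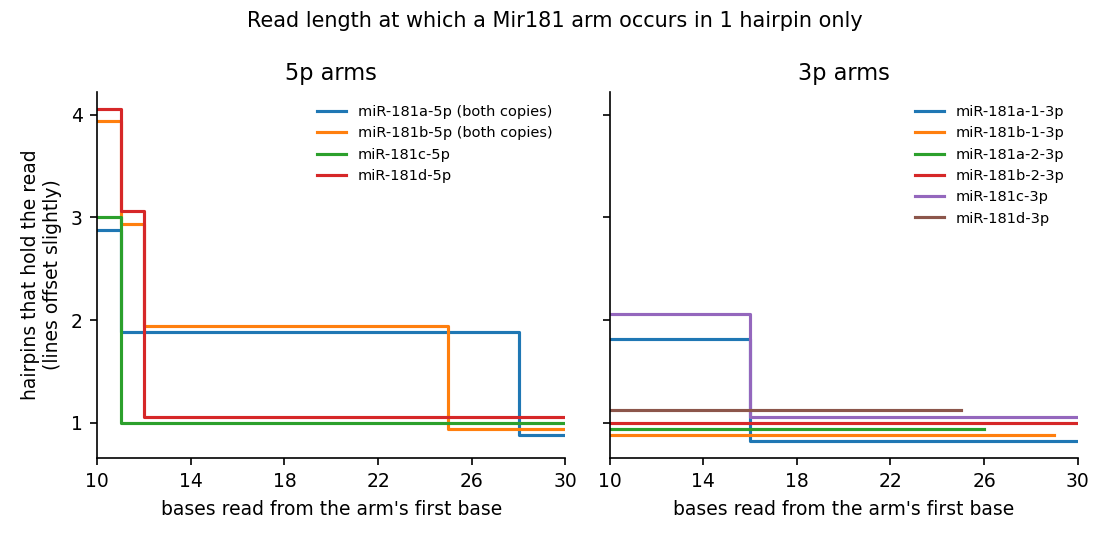
Number of annotated microRNA hairpins that hold a read starting at the first base of each Mir181 arm, by read length in bases, for 5p arms (left) and 3p arms (right). The lines are offset slightly to be visible. The line of miR-181a-5p is at 2 hairpins from 11 to 27 bases and that of miR-181b-5p from 12 to 24 bases, while each other arm is down to 1 hairpin by 16 bases.

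The copies of a shared 5p arm had very unequal counts, in opposite directions at the 2 loci. Mir181a-1 had 27.3-fold more reads than Mir181a-2 in replicate 1 (log2 ratio 4.77, exact 95% interval 4.62 to 4.93) and 59.1-fold more in replicate 2 (5.89, 5.62 to 6.16). Mir181b-2 had 113-fold more reads than Mir181b-1 in replicate 1 (6.82, 6.50 to 7.15) and 112-fold more in replicate 2 (6.80, 6.58 to 7.04). The ratio of the miR-181b copies was thus within counting error in both libraries, while that of the miR-181a copies differed beyond it. How far the last bases of 5p reads set these ratios was not tested.

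Within each locus the second gene was higher relative to the first in replicate 2 than in replicate 1. On chromosome 1 the log2 ratio of Mir181b-1 over Mir181a-1 was -6.91 (-7.24 to -6.59) in replicate 1 and -5.44 (-5.68 to -5.22) in replicate 2, a difference of 1.46. On chromosome 2 the ratio of Mir181b-2 over Mir181a-2 was 4.68 (4.53 to 4.84) and 7.25 (6.98 to 7.52), a difference of 2.57. On chromosome 8 the ratio of Mir181d over Mir181c was 0.25 (0.23 to 0.28) and 0.89 (0.86 to 0.92), a difference of 0.64. None of the 3 pairs of intervals overlapped, and the gene with more reads was the same in both libraries at every locus.

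For comparison, all neighbouring microRNA genes on the same strand within 10000 bases and with 100 or more reads over both libraries gave 99 pairs, a comparison chosen after the values had been seen. The log2 ratio of a pair differed between the libraries by a median of 0.44 in absolute size, and in 20 pairs (20.2%) by 1 or more, among them 2 of the 3 Mir181 pairs. A difference as large as that of the chromosome 2 pair was seen in 1 other pair, Mir144 and Mir451a, both known from red cells, and 34 pairs, the family's included, differed by at least as much as Mir181c and Mir181d. The second gene was relatively higher in replicate 2 in 46 of the 99 pairs and in all 3 Mir181 pairs.

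**Figure D4:**
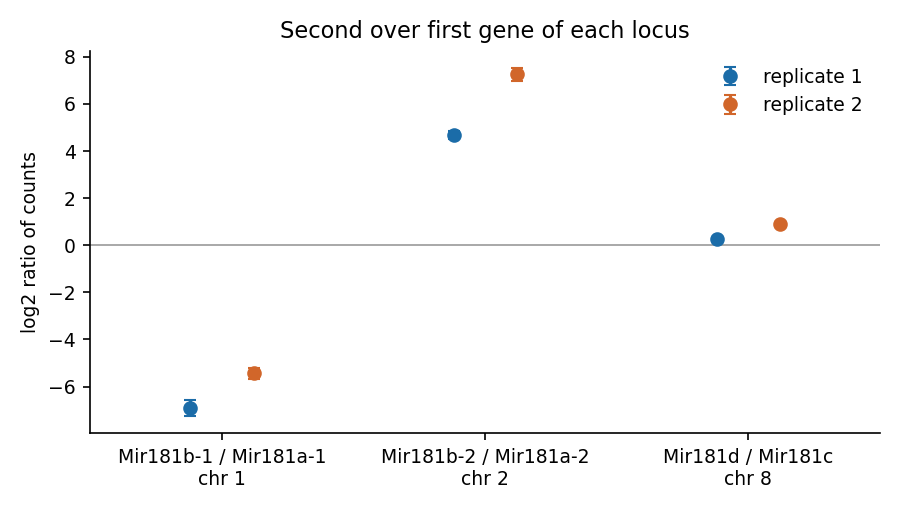
Log2 ratio of the reads of the second over the first gene of each Mir181 locus, in replicate 1 (blue) and replicate 2 (orange), with exact 95% counting intervals as bars. In all 3 loci the orange point lies above the blue one, by 1.46, 2.57 and 0.64.

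Grouping the genes by 5p sequence puts together the first genes of the loci and the second genes. It sums the same reads as above and is not a further observation. Genes of miR-181a-5p and miR-181c-5p held 47.5% of family reads in replicate 1 (47.1 to 47.9) and 32.5% in replicate 2 (32.1 to 32.8). Those of miR-181b-5p and miR-181d-5p held 52.5% (52.1 to 52.9) and 67.5% (67.2 to 67.9).

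Between the libraries, log2 ratios of replicate 2 over replicate 1 used TMM scaling, a trimmed mean of gene ratios, after adding 0.5 to every count. In replicate 2, Mir181b-2 was higher by 2.51-fold (1.33 on the log2 scale, 1.29 to 1.36) and Mir181b-1 by 2.52-fold (1.33, 0.94 to 1.74). Mir181d was 1.35-fold higher there (0.44, 0.41 to 0.46). In the other direction, Mir181a-2 was 2.36-fold higher in replicate 1 (-1.24, -1.56 to -0.94), Mir181c 1.15-fold (-0.21, -0.24 to -0.18) and Mir181a-1 1.09-fold (-0.13, -0.17 to -0.08). The 3 genes higher in replicate 1 were those of miR-181a-5p and miR-181c-5p, which are the first genes of the loci. The 3 higher in replicate 2 were those of miR-181b-5p and miR-181d-5p, the second genes. Sequence group and place in the pair thus cannot be told apart.

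Of the 6 members, 1 was at least 2-fold higher in replicate 1, against 11.0% of the 308 genes with 100 or more reads, and 2 were at least 2-fold higher in replicate 2, against 4.87%. The counting interval left out 0 for 6 of 6 members, against 77.9% of the 308 genes. The median log2 ratio of the members was 0.16, and that of the 308 genes was -0.09 with an SD of 1.01. Their 10th and 90th percentiles were -1.07 and 0.62. The ratios of Mir181b-1 and Mir181b-2 lay above the 90th percentile and that of Mir181a-2 below the 10th, while those of Mir181a-1, Mir181c and Mir181d lay between them.

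The 3 members that were 2-fold apart all belong to the 4 with a copy elsewhere. Over all 308 genes, 18.9% of the 74 that share 22 bases with another hairpin were 2-fold apart, with a median absolute log2 ratio of 0.47, and 15.0% of the 234 that share none, with a median of 0.32. Each animal gave 1 library, and what comes from the animal cannot be told apart from what comes from dissection or library making. The part of the epithelial, choroid plexus, red cell and vessel microRNAs that also differed between the libraries was not tested.

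**Figure D5:**
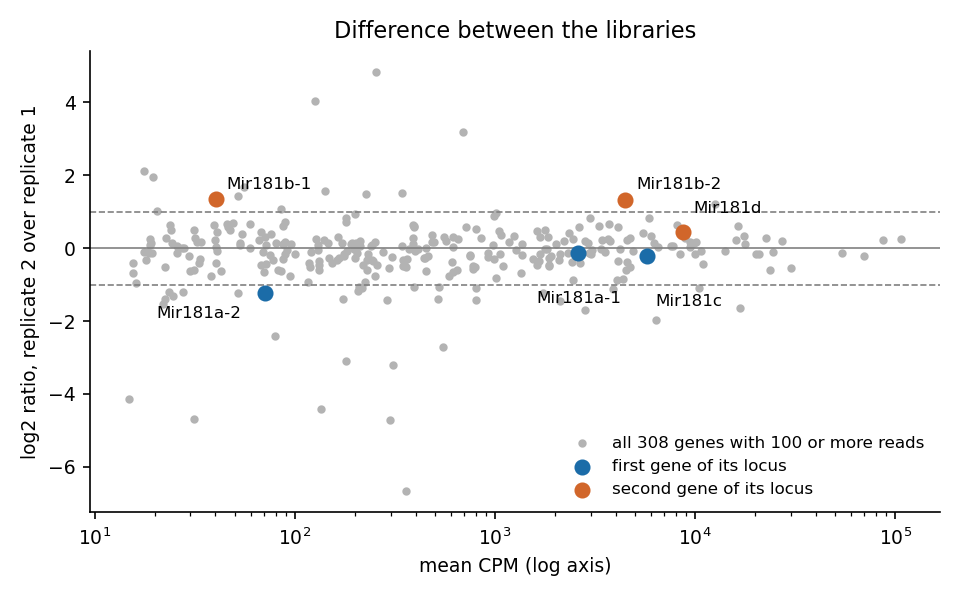
Log2 ratio of replicate 2 over replicate 1 against the mean level in CPM (log axis) for the 308 genes with 100 or more reads (grey), with the first Mir181 gene of each locus in blue and the second in orange. Dashed lines mark a 2-fold difference. The 3 blue points lie below 0 and the 3 orange points above it.

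Other brain microRNA families with copies at several loci were set beside the Mir181 genes. Such genes were 16 in number, copies of Mir9, Mir124a, Mir128, Mir138, Mir129, Mir218 and Mir219a. Of the 16, 12 reached 2 CPM in both libraries, against 20.4% of all 2202 genes. All 16 share 22 bases with another hairpin, against 49.1% of all genes. They held 2.35% of counts in replicate 1 and 1.58% in replicate 2. In the Mir181 family only 4 of 6 genes have such a run, and Mir181c and Mir181d, which have none, held most of its reads. A read lying wholly within a run found at several places is in no gene count. The search took both strands, so hairpins annotated opposite each other at 1 place also count as sharing, and their number was not counted. The share of these families and that of the Mir181 family thus cannot be ranked, and the loss in each was not tested. Among the 16 brain genes, 11 had 100 or more reads. Of these 11, Mir128-1 was at least 2-fold higher in replicate 1, against 11.0% of the 308 genes. None was 2-fold higher in replicate 2, against 4.87%. The median log2 ratio of the 11 was -0.29. Unequal copies were seen there too, where reads allowed a comparison, by less than the 27.3-fold or more between Mir181 copies. On average, Mir9-3 had 190.2 CPM and Mir9-1 67.6 CPM, and Mir218-2 had 69.9 CPM and Mir218-1 6.59 CPM. Mir138-1 had 2993 CPM and Mir138-2 990.3 CPM, Mir128-1 10396 CPM and Mir128-2 4367 CPM. Mir129-2 had 304 CPM and Mir129-1 87.5 CPM, Mir219a-2 117 CPM and Mir219a-1 59.5 CPM. Mir9-2 and the copies of Mir124a had 2 to 10 reads in each library, too few to compare copies.

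Outside the family, the genes whose levels in the 2 libraries were nearest to each member were found among 2196 genes by the larger of the 2 differences in log2(CPM + 1). Mir17, of the polycistron that bears its name, was nearest to Mir181d, with 7612 and 9988 CPM and a difference of at most 0.059. Mir669l, of the repeated cluster on chromosome 2, was nearest to Mir181a-2 (99.0 and 42.7 CPM, 0.012). Mir370, of the imprinted cluster on chromosome 12, was nearest to Mir181a-1 (0.164) and Mir411, of the same cluster, to Mir181c (0.288). Mir320 was nearest to Mir181b-2 (0.369) and Mir103-2 to Mir181b-1 (0.382). With 2 libraries such likeness says only that the levels were close.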

How the data were processed

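Small RNA sequencing of 2 cortex samples gave 1 table per library. As deposited, its values are raw counts of reads for each microRNA gene, on mm10 with GENCODE M21 per the text notes deposited with each library; aligner, counter and filters are not given in the sources used here. The tables have no header. Their second of 3 value columns, read from the layout and values as the annotated strand, was used. The 4 totals ahead of the genes (unmapped, multi-mapped, outside genes, ambiguous) did not enter library sizes. All 2202 IDs matched M21.

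CPM, Wilson and exact (Clopper-Pearson) 95% intervals and log2 ratios were computed from these counts (Python 3.11.15, scipy 1.17.1; TMM from edgeR 4.0.16), and the code was tested on simulated data. A count of 0 allows 3 counts, or 0.844 and 1.09 CPM. Shared runs were exact matches against all M21 hairpins on both strands; no genome sequence was searched, and the effect of castaneus variants on mapping was not tested. Members and lists were chosen with earlier results of these data known. Named genes were the 6 members and, for each, the gene outside the family with the nearest levels; others were named after their values were seen. Alternatives tried were the strand column, scaling, denominator, prior count, detection and count minimums, fold, run length and each replicate left out.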

Additional observations from a re-analysis of the deposited data

How the results depend on the processing

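The shares, within-locus ratios and counts of members kept their direction under each alternative run. For the shares and ratios these were counts on both strands and each replicate left out. On both strands only Mir181a-2 had another count, 119 reads in replicate 2, and leaving out a replicate gives back the value of the other. No alternative gave reads mapped to several places to a gene. Leaving out each replicate in turn, the family's share ran from 1.88% to 2.44% and that of the chromosome 8 pair within the family from 63.0% to 71.5%. Over RLE scaling, library totals, prior counts of 0.1 and 2, both strands and, chosen after seeing the data, totals without the differing marker lists, which shift all genes alike, no member's log2 ratio between the libraries changed sign. The number of members detected stayed at 6 with minimums of 1 CPM, 10 CPM and 1 read. The number 2-fold apart stayed at 3 with other count minimums and at 1.5-fold, and the number sharing a run at 4 for 18 and 20 bases. The minimums of 1 CPM and 1 read and the other count minimums were looser than those used. Since all 6 members passed the stricter ones, these settings could not change the numbers. In 7 cases a level differed from the reported one by more than its SD. Of these, 6 were levels scaled to all reads in place of microRNA counts, a larger total of which microRNA genes held 30.4% and 27.8%, and 1 was Mir181a-1 with both strands (2773 CPM). With a largest gap of 1000 bases in place of 10000, 25.4% of neighbouring pairs differed by 1 or more. No paired analysis was possible because the labels give a single group. With 80 and 159 reads, Mir181b-1 is the member whose ratio depth limits most.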
